A study of Mus musculus with 12 samples.

Results

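Molecular chaperones and the genes that govern them were examined in CD8+ T cells, the cytotoxic lymphocytes, with and without inhibition of EZH2. The set holds 81 of the 24421 gene symbols in the count tables. It takes in every symbol of the Dnaja, Dnajb and Dnajc families, every numbered Hspa, Hspb, Hspd, Hspe, Hsph and Hsp90 symbol, and a fixed list made of the heat shock factors Hsf1 and Hsf2, the stress sensors and factors Xbp1, Atf6 and Ern1, and the endoplasmic reticulum (ER) genes Herpud1, Sdf2l1, Hyou1, Pdia4, Pdia6 and Canx. The rule goes by symbols and uses no measured value. Polyadenylated RNA of C57BL/6 spleen CD8+ T cells was sequenced from 6 libraries given an EZH2 inhibitor (EZH2i) and 6 given DMSO, the solvent. EZH2 is the methyltransferase of the repressive Polycomb group that marks histone H3. Which inhibitor was used, at what dose and for how long, and the age and any further treatment of the mice or cells, is not given in the sources used here. Nothing in the labels states whether the 6 libraries of each group stem from different mice or cultures, so the p-values below measure the spread between libraries, which may be technical.

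Chaperones bind unfolded protein and help it to fold. HSP70 proteins do so in cycles of ATP hydrolysis that are started by a DnaJ (HSP40) partner and reset by a nucleotide exchange factor, and HSP90 proteins act later on a narrower set of clients such as kinases. In the cytosol the transcription factor HSF1 raises these genes under heat and other stress. The ER has its own set around BiP (Hspa5), watched by the sensors IRE1 (Ern1), ATF6 and PERK, of which IRE1 splices the Xbp1 mRNA. Mitochondria fold imported protein with mortalin (Hspa9) and the Hspd1 and Hspe1 chaperonin. T cells that are activated make and secrete much protein, and these systems are known to be raised then.

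Libraries held 19610258 to 31206228 counts in EZH2i and 17215483 to 28092434 in DMSO, and the 81 symbols took 1.32% to 1.96% of an EZH2i library and 1.38% to 2.07% of a DMSO library. The CD8+ T cell label was borne out by its markers, whose 8 genes together (Cd8a, Cd8b1, Cd3d, Cd3e, Cd3g, Cd2, Cd5 and Lck) stood at 3123 to 4530 CPM in EZH2i and 4317 to 5684 CPM in DMSO, where CPM stands for counts scaled to a common library size with TMM factors. The 4 measured plasma cell markers (Jchain, Sdc1, Mzb1 and Tnfrsf17), which matter here because plasma cells are rich in ER chaperones, summed to 0.648 to 1.61 CPM in EZH2i and 0.0924 to 0.946 CPM in DMSO. Among markers of other cells, those of B cells summed to 14.8 to 21.8 CPM in EZH2i and 19.2 to 25.2 CPM in DMSO, most of it Cd79b, and those of CD4+ T cells to 6.17 to 9.56 CPM in EZH2i and 2.96 to 8.85 CPM in DMSO, most of it Foxp3. Those of NK cells summed to 3.81 to 9.29 CPM in EZH2i and 0.432 to 1.49 CPM in DMSO, nearly all of it Klrb1c with Klra8 at 0, and those of myeloid cells to 5.60 to 17.3 CPM in EZH2i and 1.79 to 8.02 CPM in DMSO, most of it Itgam; their part in the results was not tested. The libraries numbered 6 stood apart in each group, and chaperones were among the genes that set them apart. Along the leading principal component of the 67 tested members, which held 66.5% of their variance, EZH2i library 6 lay at 4.25 and DMSO library 6 at 6.19, and the other 10 libraries lay between -2.59 and 0.485. For many of the members in which library 6 stood apart, values are therefore also given without both libraries numbered 6.

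The comparison of EZH2i with DMSO asks which transcripts differ when EZH2 is inhibited. The test was edgeR's quasi-likelihood test over the 11727 genes with enough counts, and a call is an adjusted p (Benjamini-Hochberg) under 0.05. Of the 81 members 67 had enough counts, and 6 of them rose and 5 fell. The members that rose were Ern1, Atf6, Dnaja4, Hspa2, Hspa12a and Dnajc6, 8.96% of those tested, against 13.3% of all tested genes called higher. Those that fell were Dnajb9, Dnajc9, Dnajb1, Dnajc15 and Dnajc8, 7.46% of those tested, against 6.05% of all tested genes called lower. Changes were small for most members. The median log2 fold change, EZH2i over DMSO, was -0.091 over the 67 members and -0.013 over all tested genes, with 45 members below 0 and 22 above. With upper-quartile scaling these medians were -0.030 and 0.049, and 41 members lay below 0. Without DMSO library 6 alone, 34 members lay above 0 and 33 below, at a median of 0.0055. In bulk RNA fewer cells of a type and less RNA per cell cannot be told apart, and a change relative to the library total is not a change per cell.

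**Figure D1:**
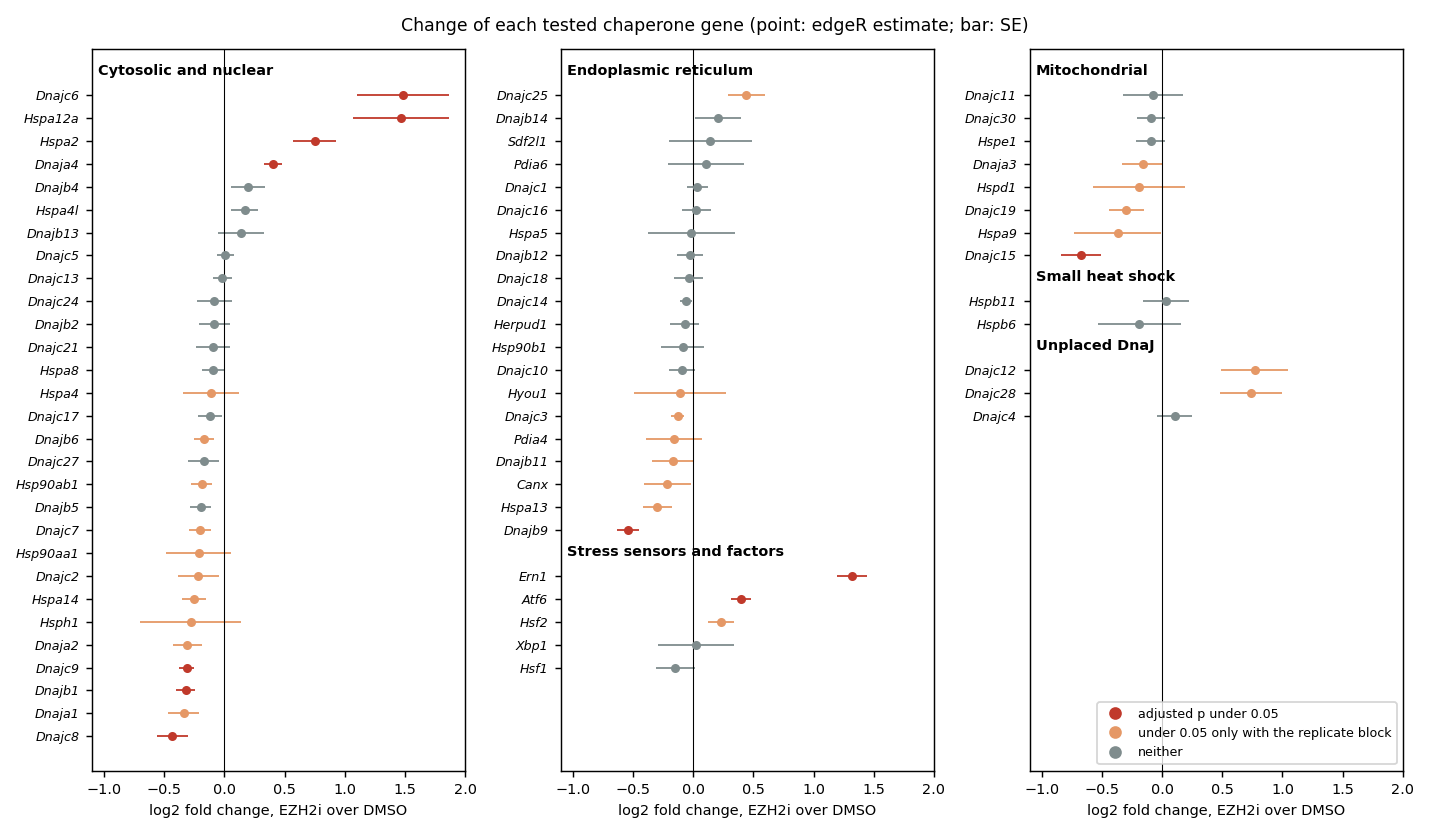
Change on the log2 scale (EZH2i over DMSO, x axis) of the 67 tested members, grouped by the compartment in which the protein works; each point is the edgeR estimate and its bar the SE. The 11 genes in red were called, those in orange were called only with the replicate number as a block, and the largest values are those of Dnajc6, Hspa12a and Ern1 on the right and of Dnajc15 on the left.

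Replicate numbers 1 to 6 occur in both groups, and those of equal number deviated together, so each test was also run with the number as a block, called blocked below. Then 10 members rose and 25 fell, 14.9% and 37.3% of the 67, against 24.7% and 24.3% of all tested genes. Without both libraries numbered 6 and with no block, 10 rose and 21 fell, against 23.9% and 20.9% of all tested genes. With the block and without those libraries 10 rose and 26 fell, against 26% and 24.2%. Without EZH2i library 6 alone 8 rose and 15 fell, against 19.2% and 15.4%. DESeq2 gave 10 higher and 6 lower of 74 tested members, against 15.3% and 8.06% of its tested genes, and upper-quartile scaling gave 8 higher and 4 lower, against 15.3% and 2.96%. All 11 calls were kept in the blocked fit and without both libraries numbered 6. Beyond them 18 members were called in both of these, 15 lower and 3 higher. How many of all tested genes were likewise called in both was not counted, so the 18 are not a result about chaperones. Sizes were modest: 8 of the 35 members called in the blocked fit had a log2 fold change of at least 0.5 in size. The pairing of numbers 1 to 5 is weak, and its meaning is not in the labels.

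Among cytosolic and nuclear chaperones the abundant HSP70 and HSP90 genes were not called, and the 4 genes that rose, Dnaja4, Hspa2, Hspa12a and Dnajc6, each stood below 20 CPM in every library. Of 29 tested members 4 rose and 3 fell, where 13.3% of all tested genes were called higher and 6.05% lower. The median log2 fold change of the 29 was -0.12, and 21 of them lay below 0. Without DMSO library 6 that median was -0.015, with 15 below 0 and 14 above. In the blocked fit 4 rose and 13 fell, where 24.7% of all tested genes were called higher and 24.3% lower. Per kilobase of merged exons the highest levels were those of Hspa8 and Hsp90ab1, the constitutive HSP70 and HSP90. Hspa8 averaged, in CPM per kb, 1076 ± 91.5 in EZH2i and 1147 ± 158 in DMSO, and Hsp90ab1 averaged 1071 ± 102 in EZH2i and 1221 ± 129.9 in DMSO (mean ± SD, n = 6 each). Those levels differed from each other by less than their SD. The stress-inducible Hsp90aa1 averaged, in CPM per kb, 146 ± 68.1 in EZH2i and 169.8 ± 65.5 in DMSO, and the DnaJ gene with the highest level, Dnajc9, a histone chaperone, 101 ± 4.69 in EZH2i and 126 ± 9.62 in DMSO.

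Hspa8 stood at 4304, 4502 and 5409 CPM in EZH2i libraries (lowest, median and highest), against 4456, 4672 and 6280.3 CPM in DMSO libraries, and the groups overlapped (log2 fold change -0.093, adjusted p = 0.532 unblocked and 0.191 blocked; without the libraries numbered 6 -0.057, adjusted p = 0.400). Hsp90ab1 stood at 2865, 3132 and 3598 CPM in EZH2i and 3062, 3648 and 4294 CPM in DMSO. That is a log2 fold change of -0.19 (adjusted p = 0.142), and it was called lower with the block (adjusted p = 0.00873) though not without the libraries numbered 6 (adjusted p = 0.0528). Hsp90aa1 stood at 428, 468 and 1119 CPM in EZH2i and 538, 565 and 1190.5 CPM in DMSO. Its highest value in each group was that of library 6, the log2 fold change was -0.21 (adjusted p = 0.636), and it was called lower with the block (adjusted p = 0.00249) and without both libraries numbered 6 (log2 fold change -0.27, adjusted p = 0.00115). Hsph1, an HSP110 that resets HSP70, behaved alike in the tests, with 31.8, 36.9 and 134 CPM in EZH2i and 41.5, 49.1 and 149.6 CPM in DMSO and a log2 fold change -0.28, adjusted p = 0.693 unblocked and 0.00111 blocked; without the libraries numbered 6 the log2 fold change was -0.37, adjusted p = 0.00214. Copies elsewhere in the genome make some of these counts uncertain: 42.8% of the 75-base windows of Hsp90aa1 transcripts and 33.0% of those of Hspa8 occur in a transcript of another gene.

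The classical heat-inducible HSP70 genes were nearly silent. Hspa1a had 14 counts in all EZH2i libraries together and 3 in all DMSO libraries, a ratio, relative to the library totals, of 3.90 (95% counting interval 1.09 to 21.2). Hspa1b had 22 counts in EZH2i and 17 in DMSO, a ratio of 1.08 (95% counting interval 0.548 to 2.17), and 14 of the EZH2i counts were in library 6; without both libraries numbered 6 it had 8 counts in EZH2i and 13 in DMSO. Per library that was 0.0506, 0.0820 and 0.126 CPM of Hspa1a in EZH2i (lowest, median and highest) against 0, 0 and 0.0736 CPM in DMSO, and for Hspa1b 0.0388, 0.0664 and 0.433 CPM in EZH2i against 0.0736, 0.122 and 0.238 CPM in DMSO. Both were under the filter, and in a fit with no filter neither was called (adjusted p = 0.120 for Hspa1a and 0.996 for Hspa1b). The genes are near-identical neighbours on chromosome 17: 61.7% of the 75-base windows of Hspa1a and 55.8% of those of Hspa1b occur in another gene, 1524 of them shared between the pair. Nothing in the labels says how reads with several matches were counted, so counts of this pair are uncertain.

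Of the HSP70 relatives 2 rose. Hspa2, an HSP70 best known from the testis, stood at 5.32, 8.64 and 10.6 CPM in EZH2i libraries (lowest, median and highest), against 3.10, 5.16 and 6.24 CPM in DMSO libraries, and rose in 6 of 6 pairs of equal number (log2 fold change 0.75, SE 0.180, adjusted p = 0.0103). Library 6 was the lowest of each group, and through EZH2i library 6 the ranges overlapped. Without both libraries numbered 6 the log2 fold change of Hspa2 was 0.76 (adjusted p = 3.14e-05). Hspa12a, a distant relative, stood at 0.805, 1.88 and 2.33 CPM in EZH2i and 0.0595, 0.614 and 1.11 CPM in DMSO, and rose (log2 fold change 1.47, SE 0.398, adjusted p = 0.0202). It passed the filter with 281 counts in EZH2i and 88 in DMSO, and without DMSO library 2 it lost its call (log2 fold change 1.38, adjusted p = 0.0508). Library 6 was its lowest in each group, and without both libraries numbered 6 the log2 fold change was 1.42 (adjusted p = 0.000139).

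DnaJ proteins of the cytosol and nucleus moved in both directions. Of 20 tested, 2 rose and 3 fell, where 13.3% of all tested genes were called higher and 6.05% lower. Dnaja4 rose, with 17.2, 17.7 and 19.6 CPM in EZH2i libraries (lowest, median and highest), against 12.7, 13.2 and 15.3 CPM in DMSO libraries and no overlap of the groups (log2 fold change 0.40, SE 0.0730, adjusted p = 0.00168). It belongs to the class A DnaJ proteins that hand clients to HSP70. Its exons overlap those of Wdr61 on the opposite strand, with 42.0% of its 75-base windows shared. The kit was stranded, but the labels do not state whether the counting used strand. Whether reads of the pair were kept apart is therefore not known. Wdr61 itself stood at 40.6 ± 14.4 CPM in EZH2i and 43.0 ± 8.95 CPM in DMSO (log2 fold change -0.083, adjusted p = 0.811). Dnajc6, which encodes auxilin of clathrin uncoating, rose from a low base, with 0.433, 0.763 and 1.36 CPM in EZH2i and 0.0595, 0.242 and 0.518 CPM in DMSO (log2 fold change 1.48, SE 0.383, adjusted p = 0.0153). It was above DMSO in each of the 6 pairs, though the ranges overlapped. Library 6 was its lowest in each group, and without both libraries numbered 6 the log2 fold change was 1.45 (adjusted p = 0.00184). Dnajc6 had 132 counts in EZH2i and 40 in DMSO. It thus passed the filter mainly through EZH2i, and its fold change rests on few DMSO counts.

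Dnajb1, the main DnaJ partner of stress-inducible HSP70, fell, with 51.3, 58.7 and 68.8 CPM in EZH2i libraries (lowest, median and highest), against 69.4, 74.6 and 81.8 CPM in DMSO libraries (log2 fold change -0.32, SE 0.0772, adjusted p = 0.0102). Every EZH2i library lay below every DMSO library. Groups that do not overlap, with EZH2i below, were found for 3 of the 67 tested members (Dnajb1, Dnajb9 and Dnajc9), 4.48%, against 2.74% of all tested genes, and with EZH2i above for 3 (Ern1, Atf6 and Dnaja4), 4.48%, against 7.50%. Dnajc9 fell, with 223, 241 and 253 CPM in EZH2i and 271, 295 and 333 CPM in DMSO (log2 fold change -0.31, SE 0.0625, adjusted p = 0.00331). Dnajc8, a nuclear protein of the spliceosome, fell too, with 136, 164 and 197 CPM in EZH2i and 146, 235 and 259.6 CPM in DMSO (log2 fold change -0.43, SE 0.131, adjusted p = 0.0349). DMSO library 4 was the low one at 146 CPM, inside the EZH2i range. The call of Dnajc8 was lost with upper-quartile scaling (adjusted p = 0.0616) and in 8 of the 12 fits that leave out 1 library, with adjusted p from 0.0523 to 0.0793.

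Dnaja1 and Dnaja2, the abundant class A partners of Hspa8, missed the threshold. Dnaja1 stood at 176, 192 and 277 CPM in EZH2i and 229.9, 238 and 343 CPM in DMSO, lower in 6 of 6 pairs of equal number, with its highest value in library 6 of each group (log2 fold change -0.34, adjusted p = 0.0855 unblocked and 4.72e-05 blocked; without the libraries numbered 6 adjusted p = 3.14e-05). Dnaja2 was alike (log2 fold change -0.31, adjusted p = 0.0926 unblocked and 5.66e-05 blocked; without the libraries numbered 6 adjusted p = 0.000135). The other cytosolic DnaJ members called lower with the block were Dnajb6 (-0.18), Dnajc2 (-0.22) and Dnajc7 (-0.21) on the log2 scale, and the HSP70 relatives Hspa4 (-0.13) and Hspa14 (-0.26) were called lower with it as well.

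**Figure D2:**
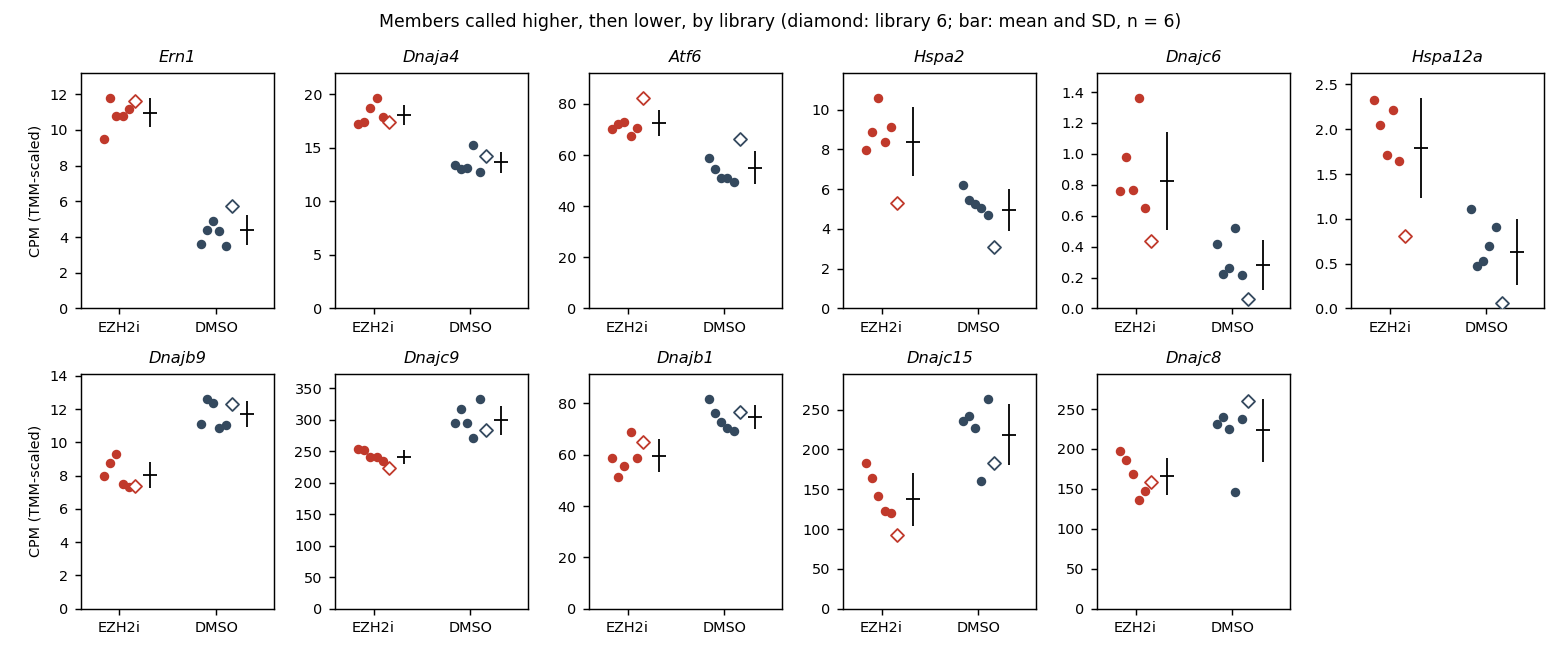
TMM-scaled CPM (y axis, from 0) of the 11 called members in each of the 6 EZH2i and 6 DMSO libraries; circles are libraries 1 to 5, diamonds library 6, and the bar is the mean and SD. Ern1, Dnaja4 and Atf6 separate upward and Dnajb9, Dnajc9 and Dnajb1 downward with no overlap, and library 6 is the lowest of its group for Hspa2, Dnajc6 and Hspa12a.

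Small heat shock proteins hold unfolding protein without ATP. Of 8 members only Hspb6 and Hspb11 passed the filter, and neither was called (log2 fold change -0.19, adjusted p = 0.748 for Hspb6, and 0.031, adjusted p = 0.934 for Hspb11, a cilium transport protein by function). Hspb1, the best known of them (HSP25 in the mouse), was under the filter but not at 0: it had 51 counts in EZH2i libraries and 4 in DMSO libraries, a ratio of 10.7 (95% counting interval 3.91 to 40.6). By library these were 0.0619, 0.319 and 0.593 CPM in EZH2i (lowest, median and highest) and 0, 0 and 0.111 CPM in DMSO, with the lowest EZH2i value in library 6. In the fit with no filter Hspb1 rose (log2 fold change 3.28, adjusted p = 0.0102), and DESeq2 gave an adjusted p of 0.00241. A pseudogene holds part of its sequence, and 46.4% of its 75-base windows occur elsewhere. Hspb3, Hspb8, Dnajb7, Dnajb8 and Hspa1l were at 0 in every library, and the remaining members under the filter, Dnajb3, Hspb9, Dnajc22, Hspa12b, Hspb7 and Hspb2, had 1 to 23 counts in a group or none.

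The heat shock element bound by HSF1 was looked for in RefSeq promoter windows (250 bases before to 50 after a start site, build GRCm38.p6), which were found for 65 of the 81 members. Members without a window, and so not searched, included Hspa8, Hsp90aa1, Hsp90ab1 and Hsf1. Searched with the letters GAANNTTC, a palindrome that reads the same on both strands, it occurred in windows of 13 of these genes, against 2442 of all 27025 genes (9.04%). A longer form, in which GAANNTTC is followed by NNGAA and which therefore contains it, was searched on both strands and occurred in 4, Dnajb6, Hspd1, Hspe1 and Hsph1, against 0.662% of all genes. Of the called members with a window (all but Atf6) Dnaja4 alone held GAANNTTC, in 2 places. The Dnaja4 window with the matches and that of Hspb1, which also holds 2, are shown 5′ to 3′. They were picked because Dnaja4 is the called member that carries the element and Hspb1 was called higher in the fit with no filter. Capitals mark each match, Dnaja4 at chr9:54699309-54699608, plus strand and Hspb1 at chr5:135887669-135887968, plus strand.
Dnaja4: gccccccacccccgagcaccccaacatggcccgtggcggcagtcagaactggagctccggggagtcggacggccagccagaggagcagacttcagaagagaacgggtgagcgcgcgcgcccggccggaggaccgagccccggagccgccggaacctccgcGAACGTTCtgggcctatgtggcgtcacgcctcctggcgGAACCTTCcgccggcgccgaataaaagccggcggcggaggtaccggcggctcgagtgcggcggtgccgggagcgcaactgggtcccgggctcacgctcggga
Hspb1: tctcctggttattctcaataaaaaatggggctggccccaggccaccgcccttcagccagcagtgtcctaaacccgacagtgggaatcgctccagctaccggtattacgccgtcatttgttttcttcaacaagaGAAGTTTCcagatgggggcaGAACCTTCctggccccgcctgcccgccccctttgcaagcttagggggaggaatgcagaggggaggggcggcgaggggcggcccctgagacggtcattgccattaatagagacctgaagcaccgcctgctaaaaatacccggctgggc
The other tested members with the element were not called: the log2 fold change was -0.28 for Hsph1, -0.17 for Dnajb6, -0.34 for Dnaja1, -0.19 for Hspb6, -0.19 for Hspd1, -0.094 for Hspe1 and -0.17 for Dnajc27. A match describes the letters in a window and is not a measured site.

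In the ER none of the 9 tested chaperones and enzymes was called, and 2 of the 3 sensors and factors that regulate them rose. Over all tested genes 13.3% were called higher and 6.05% lower. Ern1, which encodes the sensor IRE1 alpha, rose in every library pair. It stood at 9.51, 10.99 and 11.8 CPM in EZH2i libraries (lowest, median and highest), against 3.50, 4.35 and 5.72 CPM in DMSO libraries, and every EZH2i library was above every DMSO library (log2 fold change 1.32, SE 0.126, adjusted p = 1.31e-05). Its log2 fold change lay between 1.25 and 1.40 in all 18 other fits, with the largest adjusted p at 9.05e-05. Ern1 lies on chromosome 11, 106394650 to 106487852 (GRCm38). Atf6, a membrane-bound transcription factor that is cleaved on ER stress, stood at 67.2, 71.2 and 82.1 CPM in EZH2i and 49.5, 52.6 and 66.2 CPM in DMSO, again with no overlap (log2 fold change 0.40, SE 0.0810, adjusted p = 0.00378), and lies on chromosome 1, 170704674 to 170867771. Its highest value in each group was that of library 6, and without both libraries numbered 6 the log2 fold change was 0.42 (adjusted p = 1.98e-05). Xbp1 stood at 79.5, 86.0 and 224 CPM in EZH2i and 76.6, 89.7 and 214 CPM in DMSO and overlapped throughout (log2 fold change 0.021, adjusted p = 0.973 unblocked and 0.886 blocked; without the libraries numbered 6 -0.0020, adjusted p = 0.983). Counts per gene do not show splicing of the Xbp1 mRNA, so the activity of IRE1 was not measured.

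The ER chaperones and enzymes of the set, leaving aside the ER DnaJ genes given below, were not called with the sensors. Of 9 tested ER chaperones and enzymes 0 were called in edgeR's test in either direction, against 13.3% of all tested genes higher and 6.05% lower. Of the 9 chaperones and enzymes 1, Hspa13, had an unadjusted p under 0.05, and DESeq2 called 0. With the block 0 rose and 4 fell, against 24.7% and 24.3% of all tested genes. Hspa5 (BiP) stood at 239, 268 and 848 CPM in EZH2i and 263, 283 and 734 CPM in DMSO (log2 fold change -0.017, adjusted p = 0.982 unblocked and 0.269 blocked; without the libraries numbered 6 -0.15, adjusted p = 0.0711). Hsp90b1 (GRP94) stood at 705, 757 and 1266 CPM in EZH2i and 711, 815 and 1374 CPM in DMSO (log2 fold change -0.088, adjusted p = 0.778 unblocked and 0.191 blocked; without the libraries numbered 6 -0.074, adjusted p = 0.328). For both the highest value of each group was library 6 and the groups overlapped. Hyou1, the ER HSP110, stood at 56.1, 60.3 and 209 CPM in EZH2i and 64.0, 73.6 and 196 CPM in DMSO (log2 fold change -0.11, adjusted p = 0.879 unblocked and 0.0306 blocked; without the libraries numbered 6 -0.24, adjusted p = 0.00870).

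Calnexin (Canx), a lectin chaperone of glycoproteins, stood at 332, 349 and 662 CPM in EZH2i and 405, 415 and 725 CPM in DMSO. It was lower in 6 of 6 pairs of equal number, at log2 fold change -0.22, adjusted p = 0.496 unblocked and 0.00106 blocked, and it was also called without the libraries numbered 6 (-0.24 on the log2 scale, adjusted p = 0.000723). The disulphide isomerase Pdia4 stood at 90.1, 98.8 and 189 CPM in EZH2i and 97.2, 108 and 218 CPM in DMSO (log2 fold change -0.16, adjusted p = 0.684 unblocked and 0.0234 blocked; without the libraries numbered 6 -0.14, adjusted p = 0.0608), and its relative Pdia6 at 94.9, 103 and 288 CPM in EZH2i and 91.7, 105 and 239.8 CPM in DMSO (log2 fold change 0.10, adjusted p = 0.854 unblocked and 0.400 blocked; without the libraries numbered 6 0.026, adjusted p = 0.785). Neither separated the groups. Sdf2l1, a BiP cofactor, stood at 23.9, 28.0 and 85.0 CPM in EZH2i and 24.9, 27.4 and 63.4 CPM in DMSO (log2 fold change 0.14, adjusted p = 0.817 unblocked and 0.564 blocked; without the libraries numbered 6 -0.019, adjusted p = 0.867). Herpud1, of ER-associated degradation, stood at 57.5, 61.2 and 86.4 CPM in EZH2i and 57.5, 65.3 and 90.0 CPM in DMSO (log2 fold change -0.071, adjusted p = 0.737 unblocked and 0.250 blocked; without the libraries numbered 6 -0.072, adjusted p = 0.343). Hspa13, a microsomal HSP70, was called lower with the block (-0.30, adjusted p = 0.00401).

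Among the 11 ER DnaJ genes 0 rose and 1 fell, against 13.3% and 6.05% of all tested genes. The 1 called was Dnajb9 (ERdj4), a BiP partner known to restrain IRE1. It fell, with 7.34, 7.76 and 9.28 CPM in EZH2i libraries (lowest, median and highest), against 10.9, 11.7 and 12.6 CPM in DMSO libraries and no overlap (log2 fold change -0.54, SE 0.0905, adjusted p = 0.000969), and lies on chromosome 12, 44205559 to 44210326. Dnajc3 (P58IPK), another BiP partner, stood at 162, 169 and 183 CPM in EZH2i and 178, 189 and 192 CPM in DMSO (log2 fold change -0.13, adjusted p = 0.116 unblocked and 0.0407 blocked; without the libraries numbered 6 -0.11, adjusted p = 0.102). Dnajb11 fell and Dnajc25 rose in the blocked fit (-0.19 and 0.43 on the log2 scale), and both were called without the libraries numbered 6 as well.

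ER stress elements, the sites known to be bound by ATF6 and XBP1, were looked for in the same windows. Searched on both strands as CCAAT and, after 9 bases of any kind, CCACG, the element occurred in Canx, Dnajc3, Hsp90b1, Hspa5 and Pdia6, 5 of the 65 member genes with a window, against 37 of all 27025 genes (0.137%). The second form, ATTGG and CCACG with 1 base between them, occurred in Dnajb11 and Herpud1, against 12 of all genes (0.0444%). The windows of Hspa5 (chr2:34771840-34772139, plus strand) and Herpud1 (chr8:94386179-94386478, plus strand) show the one form and the other in genes that carry them and were not called; capitals mark the match.
Hspa5: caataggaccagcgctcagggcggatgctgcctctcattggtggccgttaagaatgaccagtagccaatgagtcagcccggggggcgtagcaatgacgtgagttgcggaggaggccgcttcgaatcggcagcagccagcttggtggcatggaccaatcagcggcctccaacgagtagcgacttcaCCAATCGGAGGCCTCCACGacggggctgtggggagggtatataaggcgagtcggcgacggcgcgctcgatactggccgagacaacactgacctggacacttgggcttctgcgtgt
Herpud1: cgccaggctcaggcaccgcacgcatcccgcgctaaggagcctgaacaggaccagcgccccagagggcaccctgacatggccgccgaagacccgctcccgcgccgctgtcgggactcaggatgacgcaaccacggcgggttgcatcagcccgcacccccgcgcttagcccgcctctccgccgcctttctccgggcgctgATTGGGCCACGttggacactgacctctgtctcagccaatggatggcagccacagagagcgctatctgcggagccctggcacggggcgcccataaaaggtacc
Neither letter string was found in the windows of Ern1 or Dnajb9, which is said of these letters and windows only. Hyou1, Hspa13 and Atf6 had no window and were not searched.

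Of 8 mitochondrial chaperones 1 fell and 0 rose, where 6.05% of all tested genes were called lower and 13.3% higher. All 8 estimates lay below 0, as did 6097 of those of all 11727 tested genes. The 8 were placed from general knowledge, and the 3 tested DnaJ genes given no compartment lay above 0. Of the 8 mitochondrial members 1 had an unadjusted p under 0.05, and DESeq2 too called 1 lower and 0 higher. The log2 fold changes ran from -0.67 to -0.073 with a median of -0.17, and all 8 were negative with upper-quartile scaling as well, at a median of -0.11. Without DMSO library 6 the median was -0.032, with 6 below 0 and 2 above, and without EZH2i library 6 it was -0.36, with 8 below. In the blocked fit 5 of 8 fell, where 24.3% of all tested genes were called lower. Dnajc15 (methylation-controlled J protein), an inner-membrane DnaJ known to restrain respiratory complex I, including in CD8+ T cells, fell. It stood at 92.1, 132 and 183 CPM in EZH2i libraries (lowest, median and highest), against 161, 231 and 264 CPM in DMSO libraries, lower in each of the 6 pairs (log2 fold change -0.67, SE 0.163, adjusted p = 0.0108). The groups overlapped through DMSO library 4, at 161 CPM, which lay below EZH2i libraries 1 and 2, at 183 and 164 CPM, and the lowest value of all was that of EZH2i library 6. The log2 fold change of Dnajc15 lay between -0.78 and -0.58 in all 18 other fits, with the largest adjusted p at 0.0288. The gene lies on chromosome 14, 77820681 to 77875125 (GRCm38).

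Hspa9 (mortalin), the matrix HSP70, stood at 134, 154 and 484 CPM in EZH2i and 189.7, 220.4 and 559 CPM in DMSO. Library 6 was more than 2-fold above the others in each group, and the log2 fold change of -0.37 was not called (adjusted p = 0.531). With the block it was -0.42 (adjusted p = 3.67e-05) and without the libraries numbered 6 -0.46 (adjusted p = 0.000334), and it was lower in 6 of 6 pairs of equal number. Hspd1 (HSP60) stood at 176, 205 and 666 CPM in EZH2i and 228, 242 and 701 CPM in DMSO (log2 fold change -0.19, adjusted p = 0.778 unblocked and 0.00426 blocked; without the libraries numbered 6 -0.26, adjusted p = 0.00593). Its lid partner Hspe1 (HSP10) stood at 87.2, 101 and 140.3 CPM in EZH2i and 97.4, 108 and 143 CPM in DMSO and was called in none of these fits (log2 fold change -0.094, adjusted p = 0.640 unblocked and 0.0972 blocked; without the libraries numbered 6 adjusted p = 0.141). Dnaja3 (TID1), a matrix DnaJ, stood at 35.9, 38.8 and 66.6 CPM in EZH2i and 38.8, 46.3 and 68.8 CPM in DMSO (log2 fold change -0.16, adjusted p = 0.575 unblocked and 0.0275 blocked; without the libraries numbered 6 -0.20, adjusted p = 0.0293). Dnajc19, of the import motor, was called lower with the block (-0.29, adjusted p = 0.00215). Other genes share 31.0% of the 75-base windows of Hspd1 and 14.6% of those of Hspe1.

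Hspd1 and Hspe1 lie head to head on chromosome 1, and the overlapping promoter windows hold the longer heat shock element once on each strand. The window of Hspe1 (chr1:55087898-55088197, plus strand) is shown because the pair was high together in library 6; the capitals mark the 2 overlapping matches.
Hspe1: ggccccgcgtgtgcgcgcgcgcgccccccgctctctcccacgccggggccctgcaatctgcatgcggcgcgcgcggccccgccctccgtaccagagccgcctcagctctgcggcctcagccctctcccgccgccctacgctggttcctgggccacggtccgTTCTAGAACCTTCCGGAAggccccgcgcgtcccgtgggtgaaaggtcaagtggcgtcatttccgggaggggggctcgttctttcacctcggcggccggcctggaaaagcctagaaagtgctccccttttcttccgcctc
In library 6 Hspd1 was 3.30-fold and Hspe1 1.44-fold the mean of the other 5 EZH2i libraries, and 2.89-fold and 1.35-fold that of the other 5 DMSO libraries.

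The heat shock factors were called neither in the unblocked edgeR fit of all 12 libraries, where 1 of the 2 had an unadjusted p under 0.05, nor by DESeq2, but Hsf2 rose in the blocked fit and Hsf1 fell without the libraries numbered 6. Hsf1 stood at 25.0, 27.5 and 45.9 CPM in EZH2i and 27.7, 31.96 and 45.7 CPM in DMSO (log2 fold change -0.15, adjusted p = 0.581 unblocked and 0.0572 blocked; without the libraries numbered 6 -0.20, adjusted p = 0.0438). Hsf2 stood at 10.2, 10.9 and 14.0 CPM in EZH2i and 8.69, 9.92 and 11.4 CPM in DMSO, higher in 6 of 6 pairs of equal number (log2 fold change 0.23, adjusted p = 0.153 unblocked and 0.0368 blocked; without the libraries numbered 6 adjusted p = 0.0740). HSF1 is regulated mainly as a protein, which these counts do not show. The DnaJ genes given no compartment here were Dnajc4, Dnajc12, Dnajc22 and Dnajc28. Of these Dnajc12 and Dnajc28 rose in the blocked fit (0.83 and 0.74 on the log2 scale), on 371 and 479 counts in EZH2i and 184 and 250 in DMSO. Unblocked they were not called (adjusted p = 0.0716 and 0.0613). DESeq2 called 2 of the DnaJ genes given no compartment.

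Library 6 set the range of many of these genes in both groups. Of 67 tested members 34 (50.7%) were higher in library 6 than in every other library of the group, in EZH2i and in DMSO alike, against 28.5% of all tested genes. Another 13 (19.4%) were lower in the same sense, against 31.0% of all. For ER chaperones and enzymes 8 of 9 were higher, for mitochondrial members 6 of 8 and for cytosolic HSP70, HSP90 and HSP110 genes 6 of 9. The count was 3 of 11 for ER DnaJ genes, 7 of 20 for cytosolic DnaJ genes, 2 of 3 for ER stress sensors and 2 of 2 for heat shock factors. It was 0 of 2 for small heat shock genes and 0 of 3 for DnaJ genes given no compartment. Hspa5 stood at 848 CPM in EZH2i library 6 against 239 to 279 in the other 5, and 734 CPM in DMSO library 6 against 263 to 324 in the other 5. Xbp1 stood at 224 CPM in EZH2i library 6 against 79.5 to 91.6 in the other 5, and 214 CPM in DMSO library 6 against 76.6 to 94.9 in the other 5. No other library reached these levels. Dnajb1, Dnajb9 and Dnaja4, all called, stood in library 6 within the range of the other 5 of the group.

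**Figure D3:**
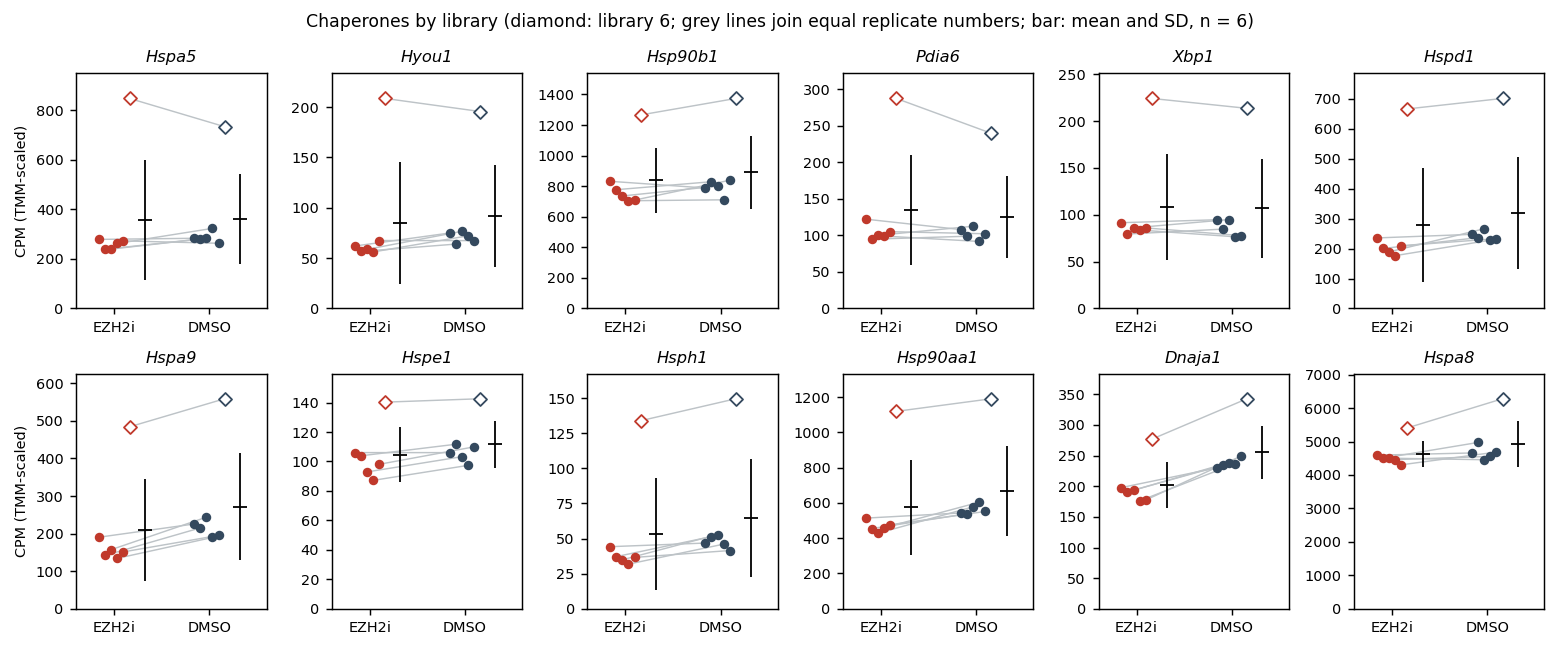
TMM-scaled CPM (y axis, from 0) of 12 members in EZH2i and DMSO libraries, picked to show library 6. Diamonds are library 6, grey lines join libraries of equal replicate number, and the bar is the mean and SD of 6. Library 6 lies above the other 5 of its group for each gene shown, which reflects that choice. Among all 67 tested members 34 were higher in library 6 in both groups and 13 lower. For Hspa9, Hsph1, Dnaja1, Hspd1 and Hsp90aa1 all 6 lines run lower in EZH2i.

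Library 6 was not simply higher in all chaperones. Hspb6 was 0.220-fold the mean of the other EZH2i libraries and 0.489-fold that of the other DMSO libraries, and Hspb11, Hspa2, Hspa12a, Dnajc6, Dnajc12 and Dnajc28 were likewise the lowest of their group. The summed level of ER chaperones and enzymes was 3656 CPM in EZH2i library 6 against 1647 to 1889 in the other 5, and 3664 CPM in DMSO library 6 against 1825 to 1907 in the other 5. Mitochondrial members summed to 1569 CPM in EZH2i library 6 against 619 to 831 in the other 5, and to 1784 CPM in DMSO library 6 against 777 to 972 in the other 5. Cytosolic HSP70, HSP90 and HSP110 genes summed to 10776.5 CPM in EZH2i library 6 against 8108 to 9017 in the other 5. In DMSO they summed to 12449.3 CPM in library 6 against 8588 to 9531 in the other 5. The summed CD8+ T cell markers were the lowest of their group in library 6, at 3123 CPM in EZH2i and 4317 CPM in DMSO. Plasma cell markers stood at 1.61 CPM in EZH2i library 6 and 0.536 CPM in DMSO library 6, with Tnfrsf17 at 0 in both. NK cell markers were the highest of their group in library 6, at 9.29 CPM in EZH2i and 1.49 CPM in DMSO, and myeloid markers the lowest, at 5.60 CPM in EZH2i and 1.79 CPM in DMSO. B cell markers too were the lowest of their group there, at 14.8 CPM in EZH2i and 19.2 CPM in DMSO. EZH2i library 6 was the deepest of the series and DMSO library 6 the shallowest. The part of any of these in the result was not tested. The labels give library 6 no treatment of its own.

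**Figure D4:**
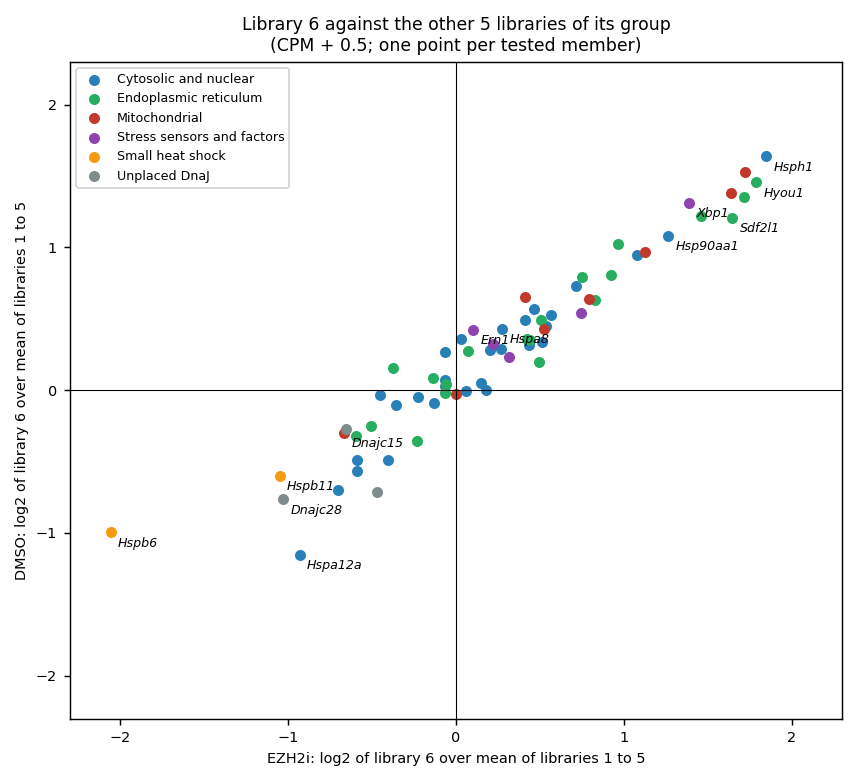
Log2 ratio of library 6 to the mean of the other 5 libraries in EZH2i (x axis) and in DMSO (y axis), 1 point per tested member, coloured by compartment, on CPM + 0.5. Hsph1, Hyou1 and Sdf2l1 lie at the upper right, and Hspb6 and Hspa12a at the lower left.

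Other genes of protein folding were listed in 3 groups, whose tested genes had 5 calls higher and 2 lower unblocked, against 13.3% and 6.05% of all tested genes, and 10 higher and 36 lower blocked, against 24.7% and 24.3%. Of 38 tested cytosolic co-chaperones and chaperonin subunits 2 rose and 1 fell, with a median log2 fold change of -0.15. Bag3, an exchange factor of HSP70 that is itself induced by HSF1, rose, with 9.30 ± 1.99 CPM in EZH2i and 4.73 ± 1.07 CPM in DMSO (log2 fold change 0.98, adjusted p = 0.00204). The HSP90 partner Fkbp5 rose, with 251 ± 13.9 CPM in EZH2i and 206 ± 18.3 CPM in DMSO (log2 fold change 0.28, adjusted p = 0.0101), and Tomm34, which passes proteins to mitochondria, fell, with 61.1 ± 5.24 CPM in EZH2i and 72.3 ± 4.50 CPM in DMSO (log2 fold change -0.24, adjusted p = 0.0275). Blocked, 3 rose and 21 fell.

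Of 38 tested genes of ER folding and degradation 3 rose and 0 fell (2 lower at an unadjusted p under 0.05, and 0 lower by DESeq2), with a median of -0.055. With the block 7 rose and 8 fell, against 24.7% and 24.3% of all tested genes. Eif2ak3, which encodes PERK, the remaining ER stress sensor, rose, with 121 ± 19.8 CPM in EZH2i and 82.5 ± 6.30 CPM in DMSO (log2 fold change 0.55, adjusted p = 0.00343). Wfs1 rose, with 5.003 ± 1.09 CPM in EZH2i and 3.06 ± 0.315 CPM in DMSO (log2 fold change 0.71, adjusted p = 0.00579), and Pdia5, an isomerase, rose, with 1.52 ± 0.5002 CPM in EZH2i and 0.745 ± 0.257 CPM in DMSO (log2 fold change 1.05, adjusted p = 0.0326). Of 17 mitochondrial folding and protease genes 0 rose (0 at an unadjusted p under 0.05 and 0 by DESeq2) and 1 fell, Yme1l1, an inner-membrane protease, with 162 ± 7.94 CPM in EZH2i and 189 ± 16.9 CPM in DMSO (log2 fold change -0.23, adjusted p = 0.0313); the median was -0.092, and 0 rose and 7 fell with the block.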

How the data were processed

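Each library has a table of raw counts, deposited by the authors, over 24421 gene symbols. The submitters' processing notes list featureCounts, SAMtools 1.9, TopHat2 2.1.1, Trimmomatic 0.38 and FastQC 0.11.7, and the build GRCm38 (mm10). Annotation, strand setting and treatment of reads with several matches were not given in the sources used here. Per the labels' protocols the kit was stranded and reads were single-end of 75 bases.

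Counts were tested in R 4.3.3 with edgeR 4.0.16 (filterByExpr defaults, TMM scaling, two-sided quasi-likelihood test on group alone, Benjamini-Hochberg adjustment over 11727 genes). DESeq2 1.42.0, upper-quartile scaling, no filter, the replicate number as a block, and the omission of each library or of both numbered 6 were alternatives; the block without the libraries numbered 6 was added after seeing the data, as were the same alternatives for the lists of other genes. The SE is the size of the log2 fold change over the square root of F. Counting intervals are exact binomial at 95% and cover counting error only. Gene lengths and positions come from GENCODE M21, matched by symbol for 81 of 81 members. Compartments were assigned from general knowledge of each protein.

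The check of pairing correlated, for each number, the deviations of its 2 libraries from the group means, and gave r = 0.213, 0.445, 0.286, 0.527, 0.317 and 0.847 for numbers 1 to 6. All are over the limit of 0.1, so libraries of equal number were treated as pairs. That rests on the data, since no label states it. Without number 6 the lowest r was 0.0371, that of number 5, which is under the limit. For 4 of the numbers the library correlated best with the one of its own number, and for numbers 3 and 5 it did not. Replicate libraries differed by more than sampling noise (chi-square per degree of freedom at least 4.89).

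Members and lists were chosen with earlier results of these data known. Genes described are all called members, a fixed set of 29 chaperones and regulators, and up to 3 called genes of each list by adjusted p. Other members named, such as those called in the blocked fit alone, were chosen after their values were seen.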

Additional observations from a re-analysis of the deposited data

Results flagged for a closer look

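Of 70 sets of 6 values, those of 35 described members in each group, 39 held 1 library whose gap to the nearest other was above Dixon's 95% critical value. Chance flags about 1 in 20 such sets, and sets of genes that move together are not independent. In 37 of the 39 the library was number 6, in both groups for 18 genes.

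Library 6 was the high one, in CPM, for the ER genes Hspa5 (848 in EZH2i and 734 in DMSO), Hsp90b1 (1266 in EZH2i and 1374 in DMSO), Hyou1 (209 in EZH2i and 196 in DMSO), Canx (662 in EZH2i and 725 in DMSO), Pdia4 (189 in EZH2i and 218 in DMSO), Pdia6 (288 in EZH2i and 239.8 in DMSO), Sdf2l1 (85.0 in EZH2i and 63.4 in DMSO), Herpud1 (86.4 in EZH2i and 90.0 in DMSO) and Xbp1 (224 in EZH2i and 214 in DMSO). So it was for the cytosolic genes and their factor Hspa8 (5409 in EZH2i and 6280.3 in DMSO), Hsp90aa1 (1119 in EZH2i and 1190.5 in DMSO), Hsph1 (134 in EZH2i and 149.6 in DMSO), Dnaja1 (277 in EZH2i and 343 in DMSO) and Hsf1 (45.9 in EZH2i and 45.7 in DMSO). The mitochondrial genes were Hspa9 (484 in EZH2i and 559 in DMSO), Hspd1 (666 in EZH2i and 701 in DMSO), Hspe1 (140.3 in EZH2i and 143 in DMSO) and Dnaja3 (66.6 in EZH2i and 68.8 in DMSO). Hspa1b stood out at 0.433 CPM in EZH2i library 6 alone, on 14 counts. The remaining sets were those of DMSO library 4, with Dnajc8 at 146 CPM against 225 to 260 in the others, and with Hspb1 at 0.111 CPM on 3 counts.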

How the results depend on the processing

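The counts of members called higher and lower, 6 and 5, became 10 and 25 with the replicate block, 10 and 21 without both libraries numbered 6, 10 and 26 with both changes, 10 and 6 with DESeq2, 8 and 4 with upper-quartile scaling and 7 and 5 with no filter. Leaving out 1 library gave 5 to 8 higher and 4 to 15 lower, the 15 without EZH2i library 6. The counts of the 3 other lists, 5 and 2, became 10 and 36 with the replicate block, 10 and 30 without both libraries numbered 6, 10 and 41 with both changes, 6 and 5 with DESeq2, 6 and 0 with upper-quartile scaling and 5 and 2 with no filter, and leaving out 1 library gave 4 to 7 and 0 to 21. All 11 calls were kept with the block. Of the 11 called members, Dnajc8 and Hspa12a lost the call under some of the 18 alternatives run, as given above, and the other 9 kept it in all. Values that changed sign were those of members not called. Hspa5 became 0.046 on the log2 scale with upper-quartile scaling. Sdf2l1 became -0.019 without both libraries numbered 6 and -0.020 with the replicate block added, and Xbp1 -0.0020 without both. Leaving out 1 library at a time gave log2 fold changes of -0.17 to 0.020 for Herpud1, -0.52 to 0.028 for Hsp90aa1, -0.25 to 0.075 for Hsp90b1, -0.48 to 0.31 for Hspa5, -0.66 to 0.20 for Hspd1, -0.81 to 0.15 for Hsph1, -0.61 to 0.26 for Hyou1, -0.37 to 0.067 for Pdia4, -0.27 to 0.39 for Pdia6, -0.31 to 0.42 for Sdf2l1 and -0.33 to 0.34 for Xbp1, and each change of sign arose without a library numbered 6, except that Hspa5 and Xbp1, near 0, also changed sign without others. The cause was not tested. Depth limits the members under the filter, of which Hspb1 rests on 51 and 4 counts.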
